A study of Mus musculus with 27 samples.

Results

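Horizontal cells are the laterally connecting interneurons of the outer retina. They collect glutamate signals from rods and cones and send feedback to the photoreceptor terminals, and they are coupled to each other through gap junctions. Their fate is set by a cascade of transcription factors in which the Onecut proteins act early and the LIM homeodomain protein Lhx1 acts later, when the cells move to their layer. In the mature mouse retina they are commonly recognised by the calcium-binding protein calbindin (Calb1) and by connexin 57 (Gja10), the gap junction protein of their dendrites. Calb1 is also found in amacrine and ganglion cells, and Onecut genes and Lhx1 are also used by other neurons.

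The 5 genes Lhx1, Onecut1, Onecut2, Calb1 and Gja10 were chosen by symbol as genes of horizontal cells. All 5 are among the 40129 genes of the table and all 5 passed the filter on low values, as did 27137 genes in all. Whole retinas of wildtype (WT) C57BL/6 mice (C57BL/6J in the methods of the study) were compared at postnatal day 14 (p14) and 17 (p17). OIR mice, which carry oxygen-induced retinopathy, had been kept in high oxygen as pups and then returned to room air, which leaves a retina short of vessels at p14 and with retinal neovascularization at p17. nOIR mice were kept in room air throughout. The comparisons at p14 used 6 mice of each kind, and those at p17 used 6 nOIR and 8 OIR mice. Control mouse S4 of p14 was set aside, as the study did. Each library held 1 retina or both pooled retinas of a mouse, and OIR pups of abnormal weight had been excluded. The mice of each group came from more than 1 litter, with the fewest litters in the nOIR p17 group. The litter of a mouse was not known, and p-values take mice as independent.

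Depth lay between 17029536 and 33593428 recovered reads per mouse. OIR p17 mouse S1 had the lowest total, and the next lowest was 24641221. The summed reads of 6 rod genes, between 867529 and 1583846 in every mouse, mark the tissue as retina. Among the nOIR p14 mice, S1 stood apart: its summed cone markers were 33025 normalized reads against 47272 to 53849 in the other 5 mice, and its Müller glia markers 40276 against 46110 to 53381. Its amacrine and bipolar sums were the highest of the 6. Calb1 results that rest on this mouse are given with and without it, whereas counts of called genes in the other lists are given only with it. In whole tissue, fewer cells of a type and less RNA per cell cannot be told apart. Expression values are normalized reads, that is, reads divided by the size factor of each mouse, and a gene was called changed at an adjusted p under 0.05 in limma.

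The stretch of 250 bases before the gene start is shown for the 3 genes with an entry in the RefSeq promoter table (GRCm38.p6). They are Gja10, the gap junction gene that was lower in OIR mice at p17, and the regulators Lhx1 and Onecut1, which were not called. CpG pairs are in capitals, and each sequence reads 5′ to 3′ along the strand of its gene.
Gja10, chr4:32602383-32602632, minus strand: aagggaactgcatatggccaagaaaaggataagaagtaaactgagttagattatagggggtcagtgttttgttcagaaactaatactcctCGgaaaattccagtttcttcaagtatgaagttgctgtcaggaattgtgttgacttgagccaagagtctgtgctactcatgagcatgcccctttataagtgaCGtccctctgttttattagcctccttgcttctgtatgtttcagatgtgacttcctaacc
Lhx1, chr11:84525535-84525784, minus strand: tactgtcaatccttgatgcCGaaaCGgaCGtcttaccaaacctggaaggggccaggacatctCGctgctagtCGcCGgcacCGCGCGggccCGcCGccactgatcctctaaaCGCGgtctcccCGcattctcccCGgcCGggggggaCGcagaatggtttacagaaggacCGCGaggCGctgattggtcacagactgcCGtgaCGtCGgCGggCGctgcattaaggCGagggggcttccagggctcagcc
Onecut1, chr9:74861671-74861920, plus strand: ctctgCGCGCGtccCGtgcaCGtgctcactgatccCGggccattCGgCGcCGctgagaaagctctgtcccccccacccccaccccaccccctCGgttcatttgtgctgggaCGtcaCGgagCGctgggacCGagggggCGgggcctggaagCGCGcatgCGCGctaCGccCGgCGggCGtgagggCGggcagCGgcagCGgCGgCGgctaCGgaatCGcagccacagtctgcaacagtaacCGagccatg
The Gja10 stretch holds 2 CpG and has a GC content of 41.2%, and 14.1% of the 32851 windows of the table have a lower one. The Lhx1 stretch holds 26 CpG at 64.8% GC and the Onecut1 stretch 31 CpG at 71.6% GC, against medians of 6 CpG and 52.4% over all windows. The letters of 3 short motifs were searched on both strands without regard to context. The core letters of the hypoxia response element, ACGTG, were found 2 times in the Onecut1 stretch, as overlapping matches on opposite strands of CACGTG, and not in the other 2 stretches. They occur in 16.6% of all windows of this length. ATTGAT, the core letters bound by Onecut proteins, and TAATTA, those bound by LIM homeodomain proteins, were found in none of the 3 stretches and in 6.72% and 4.84% of all windows. A match of so few letters is a description and not a binding site.

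Calb1 was called lower in OIR retinas at both ages and Gja10 at p17 only. The Gja10 call was lost in some alternative settings, given with its values below. The 3 transcription factor genes were not called in any comparison. At p14, 1 of the 5 genes was called lower (Calb1), where 2.91% of all genes tested were called lower. At p17, 2 of the 5 were called lower (Calb1 and Gja10), where 5.12% of all genes tested were called lower. No gene of the 5 was called higher, where 3.18% of all genes tested were called higher at p14 and 7.39% at p17. The study counted a gene as differentially expressed (DEG) only at a log2 fold change above 2 or below -2, which 0.884% of all genes reached at p14 and 2.07% at p17. None of the 5 genes did. The median log2 fold change of the 5 genes was -0.14 at p14 and -0.21 at p17, beside 0.02 and -0.02 over all genes tested.

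**Figure D1:**
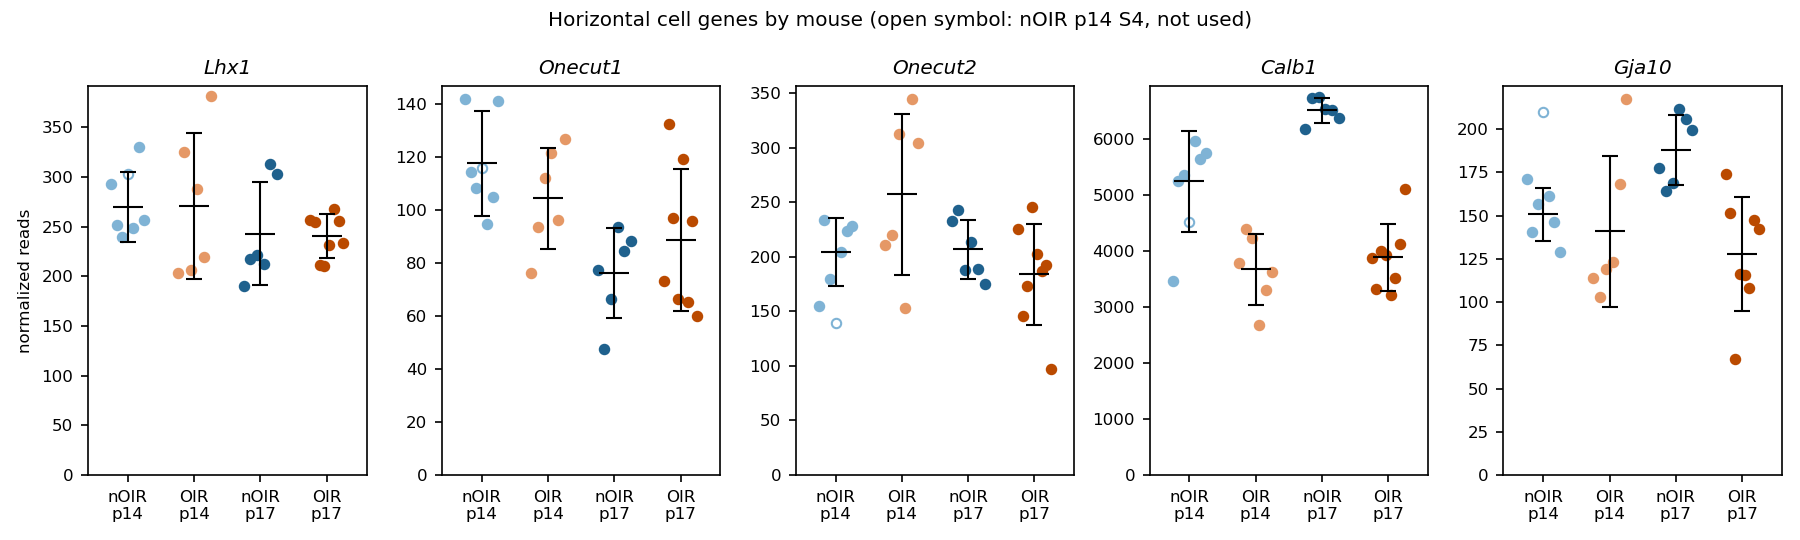
Normalized reads (linear axis from 0) of each of the 5 genes in every mouse, by group. Points are mice, horizontal bars are means and whiskers are SD over the mice used, and the open symbol is nOIR p14 mouse S4, which was not used. The 8 OIR p17 mice lie below all nOIR p17 mice for Calb1 (3211 to 5120 against 6177 to 6751), and 7 of the 8 do so for Gja10.

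Calb1 encodes calbindin, a cytosolic calcium-binding protein that buffers calcium in horizontal cells. At p14, nOIR mice ranged from 3474 to 5972 normalized reads with a median of 5509. OIR mice of this age ranged from 2681 to 4404 with a median of 3708. The groups overlapped through a single control, mouse S1 at 3474, while the other 5 controls, from 5262 upwards, all lay above the 6 OIR mice. The mean was 5247 ± 906 (SD, n = 6) in nOIR and 3674 ± 631 (SD, n = 6) in OIR mice. The log2 fold change was -0.51 (SE 0.12, 95% confidence interval -0.76 to -0.26, limma adjusted p = 0.0086), which is 70.2% of the control level. Without mouse S1 it was -0.63 (limma adjusted p = 0.00039).

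At p17, Calb1 ranged from 6177 to 6751 normalized reads in nOIR mice with a median of 6533. The OIR mice of this age ranged from 3211 to 5120 with a median of 3909. All 8 OIR mice were below all 6 controls, which 1.98% of all genes tested showed at p17 (1.86% at p14). The mean was 6519 ± 220 (SD, n = 6) in nOIR and 3890 ± 597 (SD, n = 8) in OIR mice. The log2 fold change was -0.76 (SE 0.11, 95% confidence interval -0.99 to -0.52, limma adjusted p = 1.39e-05), or 59.1% of the control level. The controls at p17 varied little, with a coefficient of variation of 3.37% against 15.3% in OIR mice. By counting alone, the reads behind Calb1 (2493 to 7032 per mouse) would give between 1.24% and 1.64%, so its spread between mice exceeded the counting error in every group.

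Gja10 encodes connexin 57, the channel protein of the gap junctions between horizontal cell dendrites. At p14, nOIR mice had 128.7 to 171.4 normalized reads with a median of 151.7. OIR mice had 103.1 to 217.4 with a median of 121.1. In the OIR group 4 of 6 mice were below all controls and 1 was above them, so OIR mice lay on both sides of the control range. Its log2 fold change at p14 was -0.14 (SE 0.19, 95% confidence interval -0.54 to 0.25, limma adjusted p = 0.81), which leaves both a fall to 68.9% and a rise to 118.9% of the control level within the interval. It was -0.28 without OIR p14 mouse S6 and -0.064 without OIR p14 mouse S2, and not called in either case.

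At p17, Gja10 ranged from 164.4 to 211.7 normalized reads in nOIR mice with a median of 188.6. The OIR mice ranged from 67.3 to 174.2 with a median of 129.2. Here 7 of 8 OIR mice were below all controls, and mouse S1 (174.2), the library with the fewest reads, lay among them. The mean was 188.1 ± 20.3 (SD, n = 6) in nOIR and 127.8 ± 33.1 (SD, n = 8) in OIR mice. This gave a log2 fold change of -0.60 (SE 0.18, 95% confidence interval -0.96 to -0.23, limma adjusted p = 0.025), or 66.2% of the control level. Without OIR p17 mouse S1 it was -0.67 (limma adjusted p = 0.010). The call depended on single mice and on scaling, since it was lost when the lowest mouse was left out (OIR p17 S3, -0.47, limma adjusted p = 0.052), without nOIR p17 mouse S4, S5 or S6 (limma adjusted p = 0.061, 0.056 and 0.054), and when every mouse was scaled to the same total (-0.53, limma adjusted p = 0.056).

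**Figure D2:**
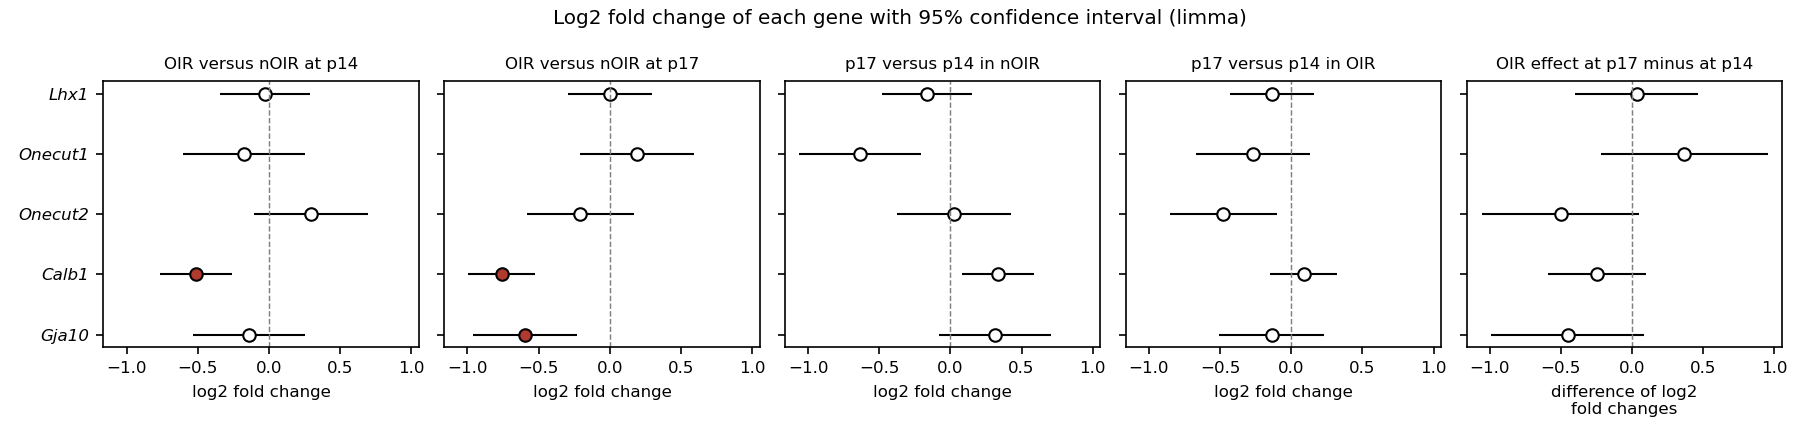
Log2 fold change of each gene with its 95% confidence interval in the 4 comparisons of groups, and, in the last panel, the difference between the OIR effects at p17 and p14. Filled symbols passed the test. Only the intervals of Calb1 at p14 and p17 (-0.51 and -0.76) and of Gja10 at p17 (-0.60) belong to called changes, while those of Lhx1, Onecut1 and Onecut2 in OIR versus nOIR span 0 at both ages.

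Lhx1 encodes a LIM homeodomain transcription factor that horizontal cells keep in the adult retina. At p14 it ranged from 239.8 to 330.7 normalized reads in nOIR mice (median 253.9) and from 203.7 to 382.2 in OIR mice (median 254.0). At p17 it ranged from 190.2 to 313.6 in nOIR mice (median 219.7) and from 210.4 to 268.4 in OIR mice (median 244.3). At p17 the OIR mice lay entirely within the range of their controls. The log2 fold change was -0.03 at p14 (SE 0.15, 95% confidence interval -0.34 to 0.29, limma adjusted p = 0.97) and 0.004 at p17 (SE 0.14, 95% confidence interval -0.29 to 0.30, limma adjusted p = 0.99). The p17 interval corresponds to 81.7% to 123.0% of the control level, so a fall as large as the estimated one of Calb1 or Gja10 at that age lies outside it. The sign of these small values turned with the scaling at both ages.

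Onecut1 encodes a cut homeodomain transcription factor that is needed for horizontal cells to form. At p14 it ranged from 94.6 to 142.1 normalized reads in nOIR mice (median 111.3) and from 76.3 to 126.8 in OIR mice (median 104.1). At p17 it ranged from 47.6 to 93.7 in nOIR mice (median 81.0) and from 59.9 to 132.6 in OIR mice (median 84.6). Both comparisons overlapped, although 4 of 8 OIR p17 mice were above every control. Its log2 fold change was -0.17 at p14 (SE 0.21, 95% confidence interval -0.60 to 0.25, limma adjusted p = 0.77) and 0.19 at p17 (SE 0.20, 95% confidence interval -0.21 to 0.59, limma adjusted p = 0.63, and -0.0017 after quantile normalization). Leaving out a mouse gave -0.23 to -0.089 at p14 and 0.066 to 0.26 at p17. Onecut1 rested on the fewest reads of the 5 genes, 42 to 160 per mouse, which give a counting error of 9.02% to 11.5% beside an observed variation of 16.8% to 30.4%. In the Gencode M21 annotation a lincRNA model, Gm20649, covers 2171 of its 4113 exon bases on the same strand, and featureCounts at default settings leaves reads that overlap more than 1 gene uncounted. Whether the model is part of the annotation release of the authors was not examined here.

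Onecut2 encodes a related factor that acts together with Onecut1. At p14 it ranged from 155.4 to 234.1 normalized reads in nOIR mice (median 214.0) and from 153.4 to 344.4 in OIR mice (median 262.4). At p17 it ranged from 175.3 to 242.6 in nOIR mice (median 201.6) and from 97.5 to 246.1 in OIR mice (median 190.2). OIR p14 mice were split, with 3 of 6 above all controls and 1 below them. Its log2 fold change was 0.29 at p14 (SE 0.20, 95% confidence interval -0.11 to 0.70, limma adjusted p = 0.50) and -0.21 at p17 (SE 0.18, 95% confidence interval -0.58 to 0.17, limma adjusted p = 0.57). Leaving out a mouse gave 0.20 to 0.43 at p14 and -0.27 to -0.084 at p17. Other settings gave -0.35 to -0.099 at p17.

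To describe the normal course between both ages, nOIR p17 mice were compared with nOIR p14 mice. None of the 5 genes was called in limma, edgeR or DESeq2, where 0.317% of all genes tested were called in limma. Of the 5, 2 had an unadjusted p under 0.05 in limma, as did 7.37% of all genes tested. For Onecut1 all 6 mice at p17 (47.6 to 93.7) were below all 6 at p14 (94.6 to 142.1), with a log2 fold change of -0.63 (SE 0.21, limma adjusted p = 0.29). For Calb1 all 6 mice at p17 (6177 to 6751) were above all 6 at p14 (3474 to 5972), with a log2 fold change of 0.33 (SE 0.12, limma adjusted p = 0.39), and of 0.22 without mouse S1 (limma adjusted p = 0.68). Groups that did not overlap, in either direction, were seen for 1.49% of all genes tested. The log2 fold changes of Gja10, Lhx1 and Onecut2 were 0.31, -0.17 and 0.02, with overlapping groups.

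Between OIR p17 and OIR p14 mice, 5.91% of all genes tested were called and none of the 5 in limma, edgeR or DESeq2, with 1 at an unadjusted p under 0.05 in limma, as had 18.3% of all genes tested. That gene was Onecut2, with a log2 fold change of -0.48 (SE 0.18, limma adjusted p = 0.14), and 2 of 8 OIR p17 mice lay below all OIR p14 mice. It was called when OIR p14 mouse S4 (153.4) was left out (-0.62, limma adjusted p = 0.039). Calb1 had a value of 0.09 within OIR mice (SE 0.11, limma adjusted p = 0.75), and the values of Gja10, Lhx1 and Onecut1 were -0.14, -0.14 and -0.27.

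Whether the OIR effect differed between the ages was tested directly in the same fit. None of the 5 genes passed in limma, edgeR or DESeq2, none had an unadjusted p under 0.05 in limma, and 1.58% of all genes tested were called. The difference (effect at p17 minus effect at p14, log2) was -0.25 for Calb1 (95% confidence interval -0.59 to 0.10, limma adjusted p = 0.65), and -0.13 without nOIR p14 mouse S1 (limma adjusted p = 0.78). It was -0.45 for Gja10 (95% confidence interval -0.99 to 0.09, limma adjusted p = 0.57), so the presence of a call at p17 and its absence at p14 does not show that its effect grew. It was -0.50 for Onecut2, 0.37 for Onecut1 and 0.03 for Lhx1.

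Levels of different genes were compared per kilobase of merged exons (Gencode M21). Calb1 was far above the other 4 genes, with a mean of 1345 normalized reads per kilobase in nOIR p17 mice and 803 in OIR p17 mice. Gja10 followed with 87.2 and 59.3, and Lhx1 with 59.7 and 59.0. In nOIR p17 mice Gja10 was above Lhx1 in all 6 mice, and the ranges (76.2 to 98.2 and 46.7 to 77.0) met only in 1 value of each gene. In the other groups these neighbours overlapped widely, with Gja10 above Lhx1 in 4 of 6 nOIR p14, 4 of 6 OIR p14 and 5 of 8 OIR p17 mice. Onecut1 had 18.5 in nOIR p17 mice and 21.6 in OIR p17 mice, and Onecut2, whose exons span 16234 bases, had 12.7 and 11.3. If reads in the overlap of Onecut1 with Gm20649 were left uncounted, the Onecut1 values per kilobase are too low. Whether its rank would change was not tested. At p14 the order was Calb1, Gja10, Lhx1, Onecut1 and Onecut2 in nOIR mice (1083, 70.0, 66.3, 28.6 and 12.6), with Lhx1 (66.6) and Gja10 (65.3) level in OIR mice.

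Likeness between the 5 genes was described from mouse to mouse. Over the 26 mice, Calb1 and Gja10 had a Pearson r of 0.42 on the log2 scale, which was -0.15 for deviations from the group means. Deviations of the 10 pairs ranged from -0.48 for Onecut1 and Calb1 to 0.37 for Lhx1 and Gja10. All values of a mouse share 1 size factor and 1 library, so these are descriptions.

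Each gene was also set beside 19003 other genes whose mean was 10 normalized reads or more, over the same 26 mice. By Pearson r, Calb1 was most like Snap25, a protein of synaptic vesicle fusion (Pearson r 0.95, Spearman rho 0.92, and 0.84 for deviations from group means). Spc25 (0.94) and Fgf12 (0.94) followed, and Spc25 was slightly closer than Snap25 by Spearman rho and for deviations (0.85). Snap25 had means of 59054, 46992, 65827 and 50180 normalized reads (nOIR then OIR at p14, nOIR then OIR at p17), the same order of groups as Calb1. The nearest genes of the other members were less close. Gja10 was most like Plcl2 (0.79), Nr1d2 (0.77) and Hif1a (0.77), and Onecut1 most like Kdr (0.76), Gm42692 (0.73) and Dhdh (0.72). Onecut2 was most like 9230116N13Rik (0.75), 3830432H09Rik (0.75) and Pou5f2 (0.74), and Lhx1 most like Mllt3 (0.68), Pla2g6 (0.67) and Tiam1 (0.66).

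Among 7 other regulators of horizontal cells, all of them tested, none was called at p14 in limma or edgeR (1 lower in DESeq2, Tfap2a, named after its value was seen, and 2 at an unadjusted p under 0.05 in limma) and 1 was called lower at p17, with medians of -0.23 and -0.25 on the log2 scale. Over all genes tested, 2.91% were called lower at p14 and 5.12% at p17, and 17% had an unadjusted p under 0.05 at p14. The called gene was Prox1, a homeobox factor of horizontal cells that amacrine and bipolar cells also use. At p17 it ranged from 5482 to 7046 normalized reads in nOIR and from 2953 to 5830 in OIR mice, with 7 of 8 OIR mice below all controls (log2 fold change -0.49, SE 0.12, limma adjusted p = 0.0047). At p14 its value was -0.06 (SE 0.13, limma adjusted p = 0.90). The difference between both Prox1 effects was -0.43 (limma adjusted p = 0.33) and was not called. Onecut3, the third Onecut gene, was low, with 5.69 to 77.9 normalized reads over the 4 groups and overlapping groups at both ages (-0.35 at p14, limma adjusted p = 0.75, and -0.33 at p17, limma adjusted p = 0.68). Ptf1a and Foxn4, which act in progenitors, were at or below 6.73 normalized reads in every mouse and at 0 in some mice of each group.

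Of 12 other genes of horizontal cell structure and synapses, 4 were called lower at p14 and 7 at p17, none higher, with medians of -0.25 and -0.43, where 2.91% and 5.12% of all genes tested were called lower. Septin4, a filament-forming GTPase used as a marker of horizontal cells, fell from 7673 to 9385 normalized reads in nOIR to 5861 to 7546 in OIR mice at p14, without overlap (log2 fold change -0.43, SE 0.09, limma adjusted p = 0.0029). At p17 its value was -0.34 (SE 0.09, limma adjusted p = 0.0065), with 7 of 8 OIR mice below all controls. Gad1, a GABA-synthesising enzyme that amacrine cells also make, was lower by -0.37 at p14 (limma adjusted p = 0.0020). At p17 it ranged from 9908 to 11646 in nOIR and from 6611 to 7603 in OIR mice (-0.62, SE 0.07, limma adjusted p = 1.72e-07), and the groups were well apart. Every OIR mouse lay below every control for 1.86% of all genes tested at p14 and for 1.98% at p17.

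The neurofilament genes belong to the axons of horizontal and ganglion cells. Nefm was lower at both ages (-0.56, limma adjusted p = 4.61e-05, and -0.46, limma adjusted p = 9.35e-05), and so was Nefl (-0.44, limma adjusted p = 0.0051, and -0.50, limma adjusted p = 0.00025). Nefh was called at p17 only, when it ranged from 5370 to 6446 normalized reads in nOIR and from 857 to 4367 in OIR mice (-1.41, SE 0.29, limma adjusted p = 0.00072), and at p14 its value was -0.27 (limma adjusted p = 0.76). The difference between both effects was -1.14 (limma adjusted p = 0.24).

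**Figure D3:**
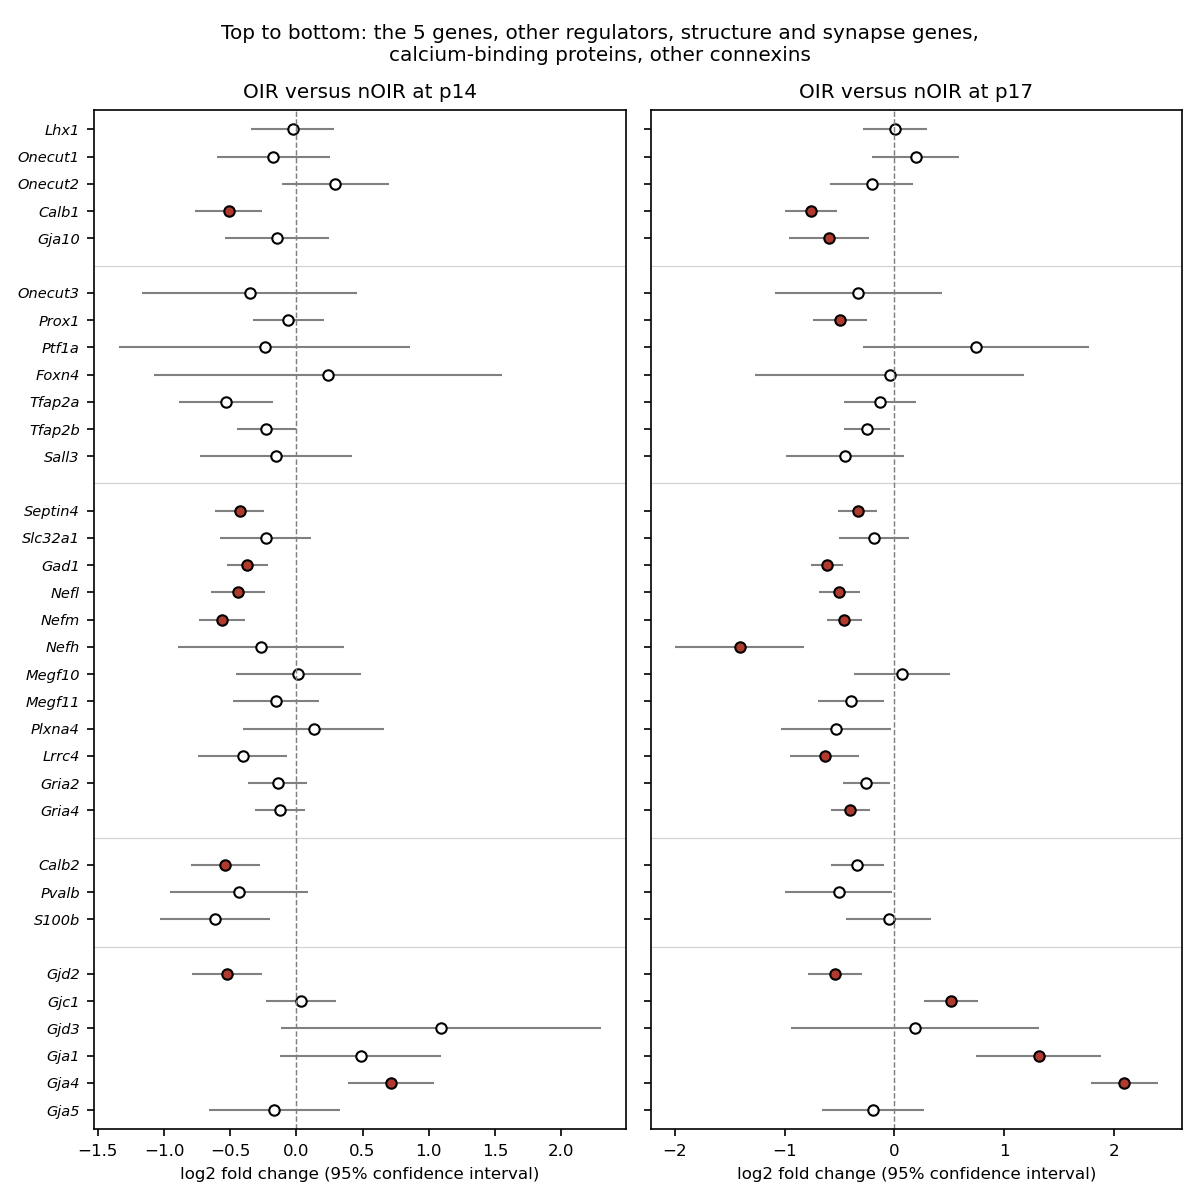
Log2 fold change with 95% confidence interval of the 5 genes (top block) and of the 4 related lists below them, in OIR versus nOIR mice at p14 (left) and p17 (right). Filled symbols passed the test. In the structure and synapse block, 4 of 12 genes are filled at p14 and 7 at p17, all to the left of 0, while connexins lie on both sides.

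Other calcium-binding proteins and other connexins were set beside Calb1 and Gja10. Of 3 other calcium-binding proteins, all had values below 0 at both ages, with medians of -0.54 at p14 and -0.34 at p17. Calb2 (calretinin, of amacrine and ganglion cells) was called lower at p14, from 15595 to 22235 normalized reads in nOIR to 12531 to 15391 in OIR mice, without overlap (log2 fold change -0.54, SE 0.13, limma adjusted p = 0.0079). At p14, 1.86% of all genes tested had every OIR mouse below every control. Calb2 was not called at p17 (-0.34, limma adjusted p = 0.062), and neither Pvalb nor S100b was called at either age in limma or edgeR (DESeq2 called S100b lower at p14). Of 7 other connexins, 6 were tested. At p14, 1 was called higher and 1 lower, and at p17, 3 were called higher and 1 lower, with medians of 0.26 and 0.35. Over all genes tested, 3.18% and 7.39% were called higher and 2.91% and 5.12% lower. Gja4 (connexin 37, of vessels) was higher by 0.72 at p14 (limma adjusted p = 0.0044) and by 2.10 at p17 (limma adjusted p = 1.62e-11), from 118.1 to 190.2 normalized reads in nOIR to 524.2 to 803.3 in OIR mice. Gja1 (connexin 43, of glia and vessels) was higher at p17 by 1.32 (limma adjusted p = 0.0011). The remaining called connexins are named after their values were seen. Gjc1 (connexin 45) was higher at p17 by 0.51 (limma adjusted p = 0.0029), with 7 of 8 OIR mice above all controls. Gjd2 (connexin 36, of bipolar and amacrine cells) was called lower at both ages, with -0.52 at p14 (limma adjusted p = 0.011) and -0.54 at p17 (limma adjusted p = 0.0020).

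Some markers of other neurons were called in the same comparisons. At p14, 2 of 8 amacrine, 2 of 8 ganglion, 1 of 7 bipolar and 1 of 6 rod markers were called lower, and at p17 5 of 8, 3 of 8, 6 of 7 and 2 of 6. Over all genes tested, 2.91% were called lower at p14 and 5.12% at p17. No marker of these 4 lists was called higher. These counts are from limma. In edgeR and DESeq2, 2 of 6 rod markers were called lower at p14, and edgeR called 4 of 8 amacrine markers lower at p17. The summed amacrine markers at p17 were 37360 to 44162 normalized reads in nOIR and 28902 to 33350 in OIR mice, and the bipolar sum was 41334 to 46455 against 27776 to 36032, both without overlap. The ganglion sum overlapped (11976 to 13419 against 8021 to 13083). Of the cone markers 1 of 6 was called lower at p14 and 0 of 6 at p17 in limma, edgeR and DESeq2, where 0 also had an unadjusted p under 0.05 in limma. No listed gene of these cell types was at 0 in every mouse of a group, and the part of these cells in the values of Calb1 and Gja10 was not tested.

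Some glial, immune and vascular markers were called as well, where 2.91% of all genes tested were called lower and 3.18% higher at p14, and 5.12% and 7.39% at p17. Of 5 Müller glia markers 4 were called lower at each age, with a summed level of 41773 to 49758 normalized reads in nOIR and 26511 to 42913 in OIR mice at p17. The remaining marker, Slc1a3, named after its values were seen, went the other way and was not called. Its means were 11523 in nOIR and 12005 in OIR mice at p14, and 8912 and 10230 at p17. Microglia markers were called higher for 1 of 5 at p14 and 3 of 5 at p17 (4 in DESeq2). Their sum at p17 was 653.1 to 732.7 in nOIR and 1252 to 2202 in OIR mice. Endothelial markers gave 1 higher and 1 lower of 5 at p14 and 4 higher at p17. Lens markers, 4 of 5 of them in the table, spread widely within groups (33.7 to 12691 normalized reads in nOIR p14 and 202.2 to 22267 in OIR p17 mice), and none of them was called at either age in limma, edgeR or DESeq2, with 0 at an unadjusted p under 0.05 in limma. Their part in the values of the 5 genes was not tested.

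**Figure D4:**
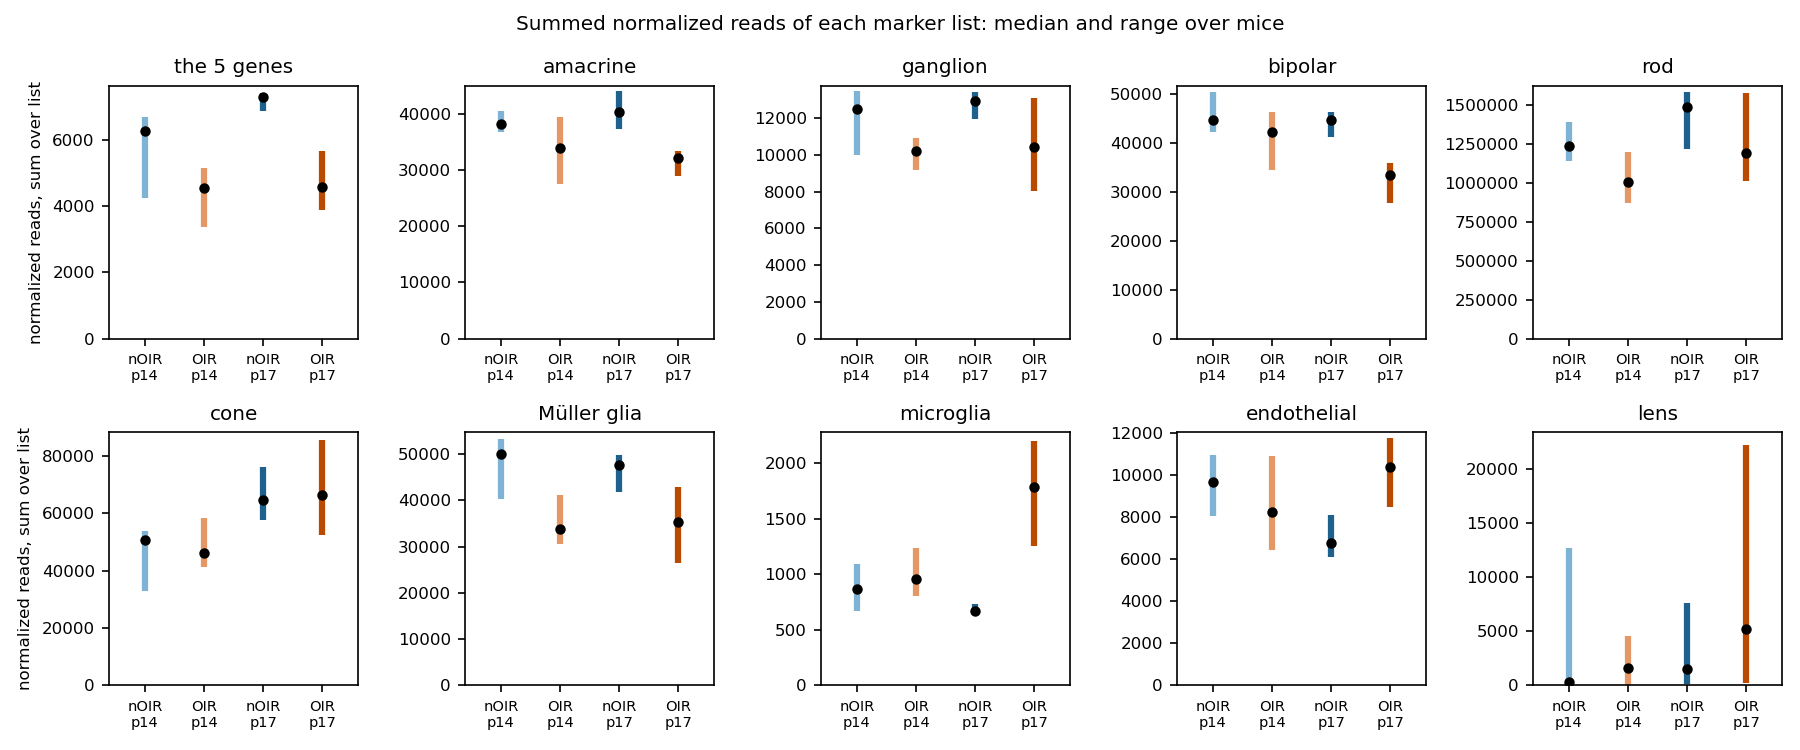
Summed normalized reads (linear axes from 0) of the 5 genes and of each cell type's markers, by group. Bars run from the lowest to the highest mouse and points are medians. At p17 the OIR bars of the 5 genes, of amacrine and of bipolar markers lie below the nOIR bars without overlap, where Calb1 makes up 90.1% of the sum of the 5 genes in nOIR and 85.9% in OIR mice, and the microglia and endothelial bars lie above them.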

How the data were processed

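Whole mouse retinas were sequenced by the authors, 1 library per mouse. Per the submitters' processing notes and the methods, reads were checked with FastQC 0.73, mapped with STAR 2.7.8a to Gencode M28, counted on genes with featureCounts 2.0.1 at default settings and normalized with DESeq2 1.34 in R 4.0.3. The deposited signal is normalized reads, that is, counts divided by 1 size factor per mouse. The table also holds the authors' group means, log2 fold changes and adjusted p-values, which were not used. Human samples were not analysed here.

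Dividing by the step of each mouse gave whole reads for 100% of the values (tolerance 0.1), which served for depth, counting error and the count tests. No removal of PCR copies is stated, so counting errors computed from reads cover sampling of reads only. No pair of mice of a group was a copy (chi-square per degree of freedom at least 9.39). Main values came from log2(normalized reads + 1), and a gene was kept if its mean was 1 or more. In R 4.3.3, limma 3.58.1 (lmFit, eBayes with trend) estimated the 4 group means in a single model, and p-values of the 27137 genes were adjusted after Benjamini and Hochberg. Fold changes on this scale understate changes of low genes. Without a change, tests on simulated data made 0 calls at p14, and they recovered 80% of 200 genes changed by 1 on the log2 scale, with 11 false calls among 171. The changed genes were drawn only from those with higher means, and smaller changes were not simulated.

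The 5 genes are given in full. From the 4 related lists, genes called in OIR versus nOIR are named, at most the 6 of smallest adjusted p over all 4 lists together per comparison, with Onecut3, Prox1 and Septin4 in any case. For likeness, the 3 genes of highest r are named. A further gene of the structure and synapse list is not reported here and is not part of the 12 that were counted. Members and lists were chosen with earlier results of these data known. Gene lengths come from Gencode M21, which is not the authors' annotation release. Alternatives were a pseudocount of 0.1, no filter, a mean of at least 10, inclusion of mouse S4, only the groups compared, a replicate block, the same total per mouse, quantile normalization, edgeR 4.0.16 with TMM, DESeq2 1.42.0, an adjusted p under 0.01 and leaving out each mouse. Python 3.11.15 with pandas 2.3.3, numpy 2.4.6 and scipy 1.17.1 was used.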

Additional observations from a re-analysis of the deposited data

Results flagged for a closer look

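Among the 20 combinations of gene and group that were examined, 1 mouse lay far from the others of its group. Calb1 in nOIR p14 mouse S1 was 3474 normalized reads, whereas the other 5 mice of the group lay between 5262 and 5972. The gap to the nearest mouse was 0.716 of the range of the group, above Dixon's critical value of 0.625 for 6 samples. Chance alone gives a gap above this critical value in about 1 of 20 groups. In the same mouse the summed markers of rods (1136835 normalized reads), cones (33025), Müller glia (40276) and ganglion cells (10004) were the lowest of the 6, and those of amacrine (40609), bipolar (50571) and endothelial cells (10971) the highest. Their part in the Calb1 value was not tested. Among the other members, Gja10 (171.4) and Onecut1 (142.1) were highest of the 6 in this mouse, and Onecut2 (155.4) was lowest. Lhx1 (293.0) lay between. The summed other regulators of horizontal cells (11347) were the highest of the 6, and the summed structure and synapse genes (61125) the lowest. With the mouse the log2 fold change of Calb1 at p14 was -0.51, and without it -0.63.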

How the results depend on the processing

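Calb1 kept its direction and its call under each alternative at both ages (adjusted p up to 0.044 at p14 and up to 0.00016 at p17). The number of the 5 genes called at p14 was 1 throughout. At p17 it fell from 2 to 1 at an adjusted p under 0.01 and with the same total per mouse, and was 1 to 2 when a mouse was left out. This is the loss of Gja10, whose log2 fold change was -0.60 at the stricter threshold, -0.53 with the same total, and -0.67 to -0.47 when a mouse was left out. Between OIR p17 and OIR p14 mice, leaving out a mouse gave 0 to 1 called genes, with Onecut2 at -0.62 to -0.35. Values near 0 turned sign. Lhx1 at p14 became 0.0089 with DESeq2, 0.014 with edgeR and 0.016 with the same total, and ranged from -0.14 to 0.046 when a mouse was left out. Lhx1 at p17 became -0.017 with DESeq2, -0.0097 with edgeR and -0.11 with quantile normalization (-0.061 to 0.082 without a mouse). Its difference between the ages became -0.026, -0.024 and -0.059 in the same order (-0.042 to 0.14). Onecut1 at p17 became -0.0017 with quantile normalization. Onecut2 in nOIR mice became -0.020 with the same total (-0.052 to 0.069 without a mouse). The cause was not tested. No scaling moved the median over all genes by more than 0.1 in OIR versus nOIR. The fit on only the groups compared gives no difference between the ages.

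With a replicate block for mice of the same number, 1 gene was called at p14 and 2 at p17 as without it (Calb1 -0.46 and -0.84, Gja10 -0.63 at p17). The labels do not say that numbers pair mice, and deviations of same-numbered mice of different groups had a mean correlation of 0.0096 over 34 pairs. Onecut1 rested on the fewest reads, 42 to 160 per mouse.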
